A study of Caenorhabditis elegans with 2 samples.

Results

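Intergenic peaks far from gene starts are entries of the pooled peak list for tagged MED-1 that lie away from promoters, gene bodies and structural RNA genes. That list was deposited with background included, so an entry is not by itself a bound site. The peaks described here were chosen by the authors' pooled signal value and by position. The 2000 peaks with the highest signal in the pooled list were taken, and a peak was kept if it was nuclear and its summit met 3 conditions. The summit had to lie over 500 bp from every protein-coding transcript start, over 200 bp from any tRNA, rRNA, snRNA or snoRNA gene, and outside every protein-coding gene of the Ensembl annotation on WBcel235, the assembly also called ce11. This gave 399 peaks, called members here, or 19.95% of the 2000. Of the other peaks, 765 lay at promoters away from small RNA genes, 526 within protein-coding genes, 289 at small RNA genes and 21 on the mitochondrial genome.

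The embryos were whole hermaphrodite C. elegans of the middle stage of embryogenesis, in 1 group of 2 biological replicates. The strain, OP391, has the mutation unc-119(ed3) on III and the transgene wgIs391, which holds med-1 with a C-terminal TY1, EGFP and FLAG tag and unc-119(+). Chromatin was sonicated and precipitated with an antibody to GFP, so the tagged protein is read and not the endogenous one. A control experiment is named in the labels but was not analysed here, and neither were embryos without the tag or with another tagged factor. Both replicates carry the same transgene, whole embryos mix all cell types, and with 1 group no comparison of conditions was possible. The files give no read counts, so the read depth is unknown.

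MED-1 is a GATA-type zinc finger factor that acts in the early embryo, where the maternal factor SKN-1 turns it on in the EMS cell. It turns on end-1 and end-3 in the endoderm and tbx-35 in the MS lineage, and it binds a site that differs from the usual GATA sequence. Peaks between genes can lie at distal enhancers, at genes of non-coding RNA or at sites that organise chromosomes.

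The strongest member lay at a microRNA gene of chromosome IV, and another microRNA gene of IV held the sixth strongest. A microRNA (miRNA) is a short RNA that binds target mRNAs, and its gene encodes a hairpin from which it is cut. The highest member, rank 27 of the pooled list, had its summit at IV 11026204, 92 bp upstream of mir-51 and inside the ncRNA gene F36H1.17. Its signal was 211 in the pooled list, 79.7 in replicate 1 and 135 in replicate 2. Another member, rank 116, had its summit inside mir-52, at IV 14034037. Its signal was 101 in the pooled list, 45.2 in replicate 1 and 53.4 in replicate 2. mir-51 and mir-52 belong to one miRNA family, which is needed for embryonic development. The genomic sequence of both is shown because these are the strongest members at a gene of known product. It is the RefSeq sequence on ce11, with the miRNA gene in capitals. For mir-51 the minus strand is given, chrIV:11026013-11026224, from past the summit to the end of the gene. For mir-52 it is the plus strand, chrIV:14034008-14034107.
mir-51: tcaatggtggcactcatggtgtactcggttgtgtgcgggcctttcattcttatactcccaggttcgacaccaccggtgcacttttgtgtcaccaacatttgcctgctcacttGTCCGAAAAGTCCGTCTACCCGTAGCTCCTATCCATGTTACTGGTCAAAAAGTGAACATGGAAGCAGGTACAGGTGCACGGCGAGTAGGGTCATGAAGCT
mir-52: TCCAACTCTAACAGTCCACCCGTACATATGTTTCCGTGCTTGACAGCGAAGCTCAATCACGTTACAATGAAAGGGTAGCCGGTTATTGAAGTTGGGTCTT

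Weaker members lay at 2 further miRNA genes and had no peak in the list of replicate 1. A summit inside mir-79 (rank 435, on I) had a pooled signal of 40.1 and 27.4 in replicate 2. A summit 10 bp upstream of mir-45 (rank 466, on II) had 38.7, with 26.5 in replicate 2. A member thus lay within 200 bp of 4 of 261 miRNA genes, and any of the 2000 peaks at 14 of them. Members within 200 bp of a miRNA gene were 1.00% of all members, against 0.200% of intergenic positions that meet the same distance rules, sampled every 100 bp (296335 positions, the background below).

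Other strong members flanked protein-coding genes with no miRNA gene near. The second strongest, rank 65, lay inside the ncRNA gene F52D10.7 and 543 bp upstream of ftt-2, which encodes a 14-3-3 protein. Its signal was 132 in the pooled list, 75.1 in replicate 1 and 61.4 in replicate 2. The third, rank 95, lay 631 bp upstream of usp-4 on IV, with 111.8, 57.9 and 54.96 in the same order. Rank 123 lay 514 bp upstream of K12H4.5 on III, with 97.4, 55.8 and 42.4. Each of these was in the upper part of both replicate lists, at rank 183 or better. Rank 129 lay on II, inside the ncRNA gene K10H10.14. It was 996 bp upstream of dhs-8, a dehydrogenase gene by name, with 93.9, 36.9 and 59.7. The 20 strongest members reached down to a signal of 50.2 at rank 323 (on I, 147 bp downstream of Y105E8B.7). All 20 had a peak in both replicate lists, though ranks 65 and 288 overlapped the same peak of replicate 2. Of all peaks at ranks 101 to 460, 92.8% were in both lists. Of the 20 members, 10 were on X.

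**Figure D1:**
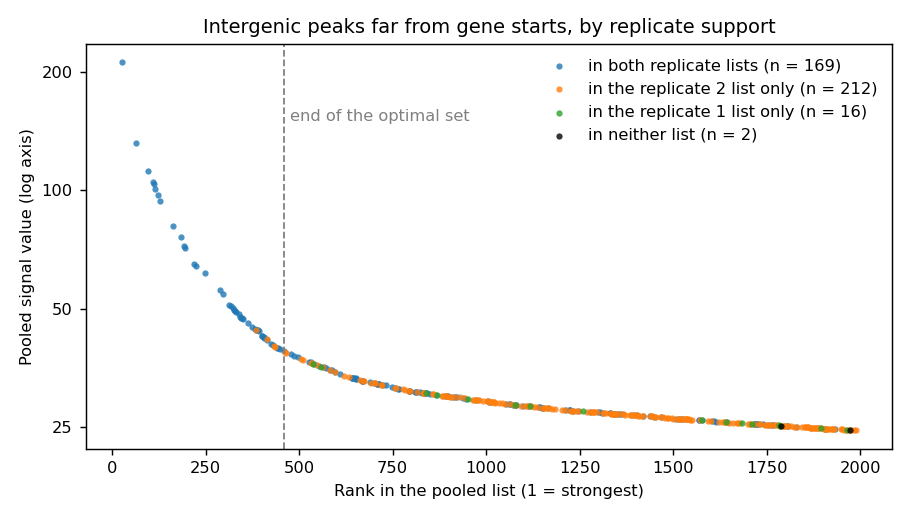
Pooled signal value (log axis) of the 399 members against their rank in the pooled list, coloured by the replicate lists that hold an overlapping peak. Signal falls from 211 to 24.6, and members to the right of the dashed line, the end of the optimal set at rank 460, are increasingly in the replicate 2 list only.

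Replicate support was partial and followed the rank of the peak. The optimal set is the authors' list of peaks that passed the irreproducible discovery rate (IDR), a filter on how well ranks agree between replicates. It held 50 members (12.5%), where it held 23% of the 2000 peaks. The deposited q-value column, used here as a score, was at least 2 for 12 members (3.01%), against 9.8% of the 2000. A peak of both replicate lists overlapped 169 members by at least 1 bp (42.4%, exact binomial 95% interval 37.5 to 47.4), against 50.2% of the 2000, 52.3% of promoter peaks and 33.7% of peaks within genes. The strongest 2000 peaks of both replicates overlapped 73 members (18.3%), against 29.4% of the 2000. The intervals cover sampling of peaks only.

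The list of replicate 1 holds 2401 peaks and that of replicate 2 holds 30000. Members overlapped a peak of replicate 2 in 381 cases and of replicate 1 in 185. A further breakdown gave 212 members in replicate 2 alone, 16 in replicate 1 alone and 2 in neither. Support fell with rank: 43 of 47 members at ranks 101 to 460 were in both lists (91.5%), 57 of 110 at ranks 461 to 1000 (51.8%), 39 of 120 at ranks 1001 to 1500 (32.5%) and 27 of those below (22.7%). All peaks of the same ranks had 92.8%, 54.6%, 33.8% and 21.4%, so members and other peaks of like rank had shares close to each other. These counts are a description, because the pooled list holds the reads of both replicates and chose the members.

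Signal had a median of 28.0 over the members, against 29.5 for promoter peaks and 51.99 for peaks at small RNA genes. The last members inside the limit of 2000, at ranks 1976, 1982 and 1988, each had a signal of 24.6. The next peaks that would have met the position rules, at ranks 2001, 2003 and 2004, had 24.5. The limit of 2000 thus falls within a smooth run of values. Across the 169 members in both lists, Spearman's rho between the replicate signals was 0.27 and Pearson's r was 0.75, given to describe these peaks. These points share the pooled signal that chose them, and the upper values belong to a few strong members.

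**Figure D2:**
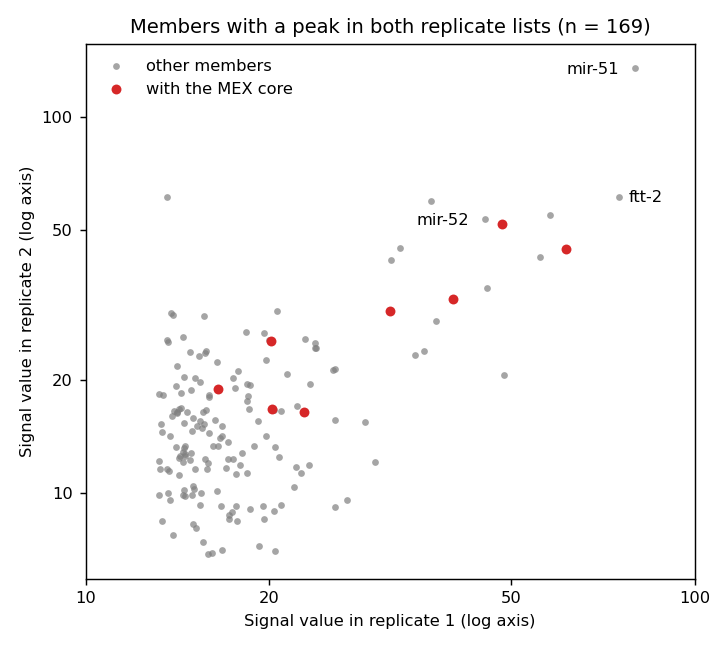
Signal value in replicate 2 against replicate 1 (log axes) for the 169 members with a peak in both lists. Of the 8 members with the MEX core (red), 4 are above 30 in both replicates and the others lie under 30 in both, among most other members, while mir-51 stands highest at 79.7 and 135.

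X held a larger share of members than of the available sequence, by a margin that depends on the members counted. Of the 399 members, 109 were on X (27.3%, exact binomial 95% interval 23.003 to 31.97), where X has 22.3% of the background positions. Of the promoter peaks 10.5% were on X, and of the peaks within genes 17.3%. IV held 50 members (12.5%, background 19.4%) and V held 49 (12.3%, background 21.3%). On I, II and III the members per Mb of background were 16.8, 17.1 and 18.5, close to the 16.5 of X, and on IV and V they were 8.69 and 7.77. So X stands above IV and V, and level with the other autosomes, once the amount of sequence is counted. With the strongest 1000 peaks X held 31.9% of 160 members (24.7 to 39.7), an interval above the background share of 22.3%. With the strongest 4000 peaks it held 24.5% of 898 members (21.7 to 27.4). Without the members near med-1 it held 25.6% of 390 (21.4 to 30.3). The intervals of these last settings both hold the background share. X members were in both replicate lists in 57 of 109 cases (52.3%) and autosomal members in 112 of 290 (38.6%). Their median pooled signals were 28.5 and 27.7, and the part of rank in this difference was not tested. X held 21 of the 50 members in the optimal set. That was 19.3% of X members, against 10% of autosomal members and 23% of the 2000 peaks.

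**Figure D3:**
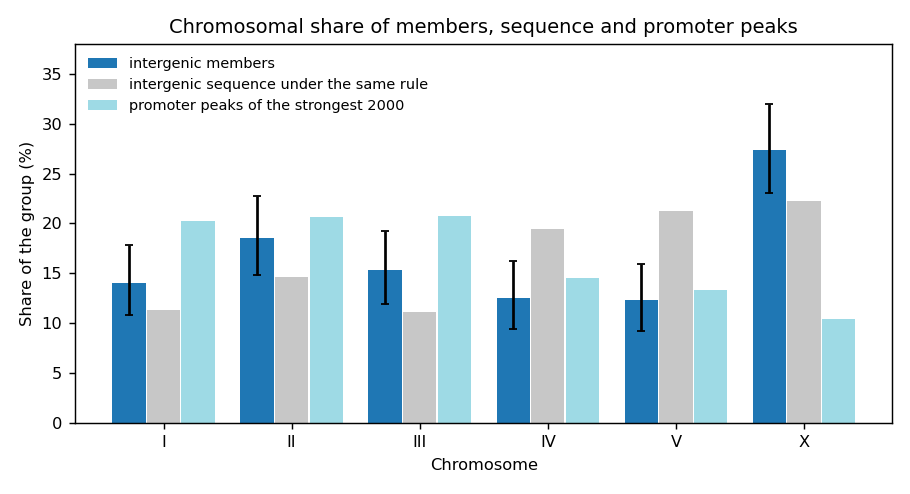
Share of each chromosome (%) among members (dark blue, bars with exact binomial 95% intervals), among intergenic background positions under the same rule (grey) and among promoter peaks of the strongest 2000 (light blue). X holds 27.3% of members, 22.3% of the background and 10.5% of promoter peaks.

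Several of the strongest X members carried the core of the MEX motif, a motif enriched on X. In hermaphrodites the dosage compensation complex, which lowers transcription of X, is recruited at rex sites, and these carry MEX motifs. The core searched, GCGCAGGG on both strands, was picked after the sequences of the strongest members were seen, so it is given with no test. Within 100 bp of the summit it was found in 8 of 109 X members (7.34%) and in 0 of 290 autosomal members. Neither flank window of any X member, 300 to 500 bp away on each side, held it. The background was 0.103% of 32984 intergenic windows of 201 bp on X and 0.0530% of 115088 on the autosomes. Among other peaks of the 2000 the core was in 3 of 91 X peaks within genes, in 0 of 80 X promoter peaks and in 0 of 685 autosomal promoter peaks.

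The members with the core had pooled signals of 36.2 to 105, and all 8 had a peak in both replicate lists. These values are a description, since the core was picked from strong members. The strongest, rank 109, lay 1309 bp downstream of hpk-1, a protein kinase gene, with 61.4 in replicate 1 and 44.6 in replicate 2. Rank 112 lay between the convergent genes W04G3.11 and W02H3.3, with 48.3 in replicate 1 and 51.9 in replicate 2. Rank 196 lay between gtr-1 and F25E2.2, with 40.1 in replicate 1 and 32.8 in replicate 2. Rank 248 lay between nspc-17 and nspc-18, with 31.6 in replicate 1 and 30.5 in replicate 2. In each of these the core was 8 to 21 bp from the summit. Rank 527 lay 4791 bp downstream of C34D10.1, its nearest gene, and 4908 bp upstream of xol-1, the switch gene of sex determination. It had the core at the summit, with 20.2 in replicate 1 and 16.7 in replicate 2. It lay 280 bp from a small RNA gene and was outside the optimal set. A relation of MED-1 to the dosage compensation complex was not tested. The sequences of the 4 strongest are shown so that the bases beside the core can be compared. They are RefSeq sequence on ce11 with the core in capitals: chrX:4209246-4209293 (minus strand), chrX:11094206-11094253 (minus), chrX:806654-806701 (plus) and chrX:14525880-14525927 (minus).
rank 109: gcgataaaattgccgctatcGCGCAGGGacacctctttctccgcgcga
rank 112: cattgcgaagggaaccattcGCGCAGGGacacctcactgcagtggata
rank 196: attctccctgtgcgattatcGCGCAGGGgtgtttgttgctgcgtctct
rank 248: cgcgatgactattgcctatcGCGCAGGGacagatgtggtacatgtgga

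A group of X members lay around med-1 itself, which the transgene also carries. Within 20 kb of either end of med-1 lay 16 of the 2000 peaks, and 9 of them were members. Their pooled signals ran from 25.3 to 65.1, 3 were in the optimal set and 6 had a peak in both replicate lists. The strongest, rank 218, lay 15076 bp downstream of the med-1 start, between tsct-1 and T18D3.6, with 37.6 in replicate 1 and 28.7 in replicate 2. The nearest upstream, rank 374, lay 3660 bp from the start with 13.8 in replicate 1 and 30.1 in replicate 2, and rank 505 lay 1475 bp past the gene, with 22.7 in replicate 2 and no peak in replicate 1. Of 2509 fixed windows of 40 kb along the nuclear genome, 2175 held no member. The fullest held 7 and is the one that contains med-1, so those 7 are among the 9 members here. The next fullest held 6. No peak of the 2000 lay within 20 kb of the endogenous unc-119. Whether reads from the unc-119(+) copy on the transgene would map there was not tested. Reads from med-1 on the transgene and from the endogenous med-1 locus cannot be told apart in these lists. Without the 9 members, 41.8% of the remaining 390 were in both lists.

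**Figure D4:**
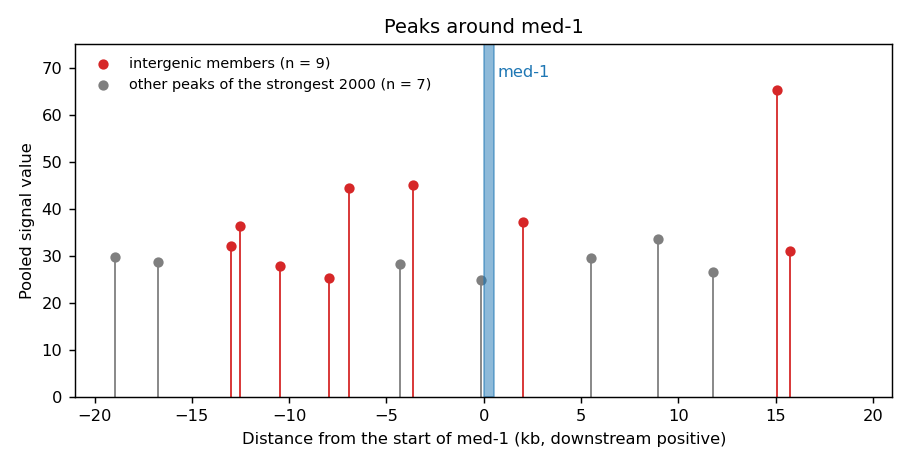
Pooled signal value of the strongest 2000 peaks within 20 kb of med-1 against distance from its start (kb, downstream positive), with the gene as a blue band. The 9 members (red) have signals of 25.3 to 65.1, and the 7 other peaks (grey) are at most 33.6.

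Most members stood alone. Joining summits within 5000 bp gave 363 loci, of which 27 held several members, 63 in all. The largest, with 6 members over 9323 bp, lay between lin-2, T24D3.2 and med-1 and belongs to the neighbourhood just described. The next, with 5 members over 8182 bp, lay between snt-1, which encodes synaptotagmin, and egl-27, a chromatin regulator. Its members were weak, with pooled signals of 25.6 to 30.3, and 2 of the 5 were in both lists. The space shared by jmjd-2 and hmg-1.1 and that upstream of ftt-2 held 3 members each, up to 47.2 and 132. hbl-1, which encodes a Hunchback-like factor of developmental timing, had a pair of members upstream, at 5438 and 10018 bp, with 44.3 and 47.6, each in both lists. The farther of these was nearer to F13D11.3, at 6202 bp. The loci in this paragraph were chosen after their values were seen.

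Members lay downstream of both flanking genes in a smaller share than the intergenic sequence offers, and the other arrangements were closer to it. A peak upstream of both flanking genes lies between divergent genes, one downstream of both between convergent genes. Of the members 135 were upstream of both genes (33.8%, background 32.0%), 226 upstream of 1 (56.6%, background 54.1%) and 38 downstream of both (9.52%, exact binomial 95% interval 6.83 to 12.8, background 13.7%). The member was on the 5′ side of its nearest gene in 236 cases (59.1%, background 54.6%). Of the 38 members downstream of both genes, 9 were in the optimal set, as were 19 of the 135 upstream of both and 22 of the 226 upstream of 1. The optimal set held 12.5% of all members and 23% of the 2000 peaks. Among the 9 were the members at mir-51, mir-52 and mir-79. Another of them, rank 192 on IV, lay between aagr-1 and D2096.7 and had 72.1 in the pooled list, 31.7 in replicate 1 and 41.5 in replicate 2.

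Members lay nearer to genes than the background. The median distance from summit to the nearest protein-coding gene was 1098 bp, against 1507 bp for the background, and 186 members were within 1000 bp. The farthest, rank 1876 on IV, lay 16965 bp from irld-18, with a pooled signal of 24.9 and 16.5 in replicate 2. The median distance between the flanking genes was 5617 bp, against 6713 bp. Members in the optimal set had a median of 734 bp to the nearest gene, and the others 1163 bp.

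Genes of the tissues that MED-1 helps to form were among the flanking genes in small numbers, too few to judge against the share of all genes. The members had 715 flanking genes, 3.58% of 19973 nuclear protein-coding genes. Of 14 early mesendoderm genes 2 flanked a member (14.3%). They were med-1, which the transgene also carries, and pop-1, which encodes the TCF factor of Wnt signalling. The pop-1 member, rank 664 on I, lay 5009 bp upstream and had 32.9 in the pooled list, 22.0 in replicate 2 and no peak in replicate 1. Of 30 intestine genes 0 flanked a member, of 25 pharynx genes 1 (4%) and of 30 body wall muscle genes 2 (6.67%). ceh-22, a homeobox factor of pharyngeal muscle, had a pair of members downstream, at 1695 and 4822 bp, with 28.3 and 29.1 and no peak in replicate 1. The farther of the pair was nearer to gsp-1, lying 1831 bp upstream of it. pat-4 and unc-112, which encode parts of the muscle attachment complex, had a member 187 bp downstream with 26.8 and one 553 bp upstream with 26.3. The member by pat-4 was nearer to mrpl-40, at 23 bp. Of the 32 germline genes 0 flanked a member, and of 37 neuron genes 1 did (snt-1, 2.70%). Of 26 epidermis genes 4 did (15.4%), and of 14 heterochronic genes, which time development, 3 did (blmp-1, hbl-1 and lin-41, 21.4%). Among large families, shares were lower than for all genes at 14 of 1310 chemoreceptor genes (1.07%), 3 of 240 C-type lectin genes (1.25%) and 6 of 322 F-box genes (1.86%). Nuclear hormone receptor genes had 14 of 269 (5.20%). These counts are small, come with no test, and do not weigh how much intergenic space each gene has.

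A pseudogene or a non-coding RNA gene of a kind not excluded lay within 200 bp of 97 members (24.3%, background 22.8%), most of them annotated simply as ncRNA. The summit was inside such a gene for 40 members (10.03%), a smaller share than the 12.7% of the background. Within 200 bp of a summit was an ncRNA gene for 67 members (16.8%, background 4.72%), a pseudogene for 21 (5.26%, background 11.9%), a piRNA gene for 6 (1.504%, background 5.76%) and a lincRNA gene for 5 (1.25%, background 0.869%). An antisense RNA gene was near 0 members (background 0.0817%), and 302 members had no such gene near. Pseudogenes and piRNA genes, the latter encoding short germline RNAs that guide silencing, were thus less common near members than in the background. Members with an ncRNA gene near were in both replicate lists in 35 of 67 cases (52.2%), and the other members in 134 of 332 (40.4%). Their median pooled signals were 30.3 and 27.6. Replicate support followed rank, and the part of rank in this difference was not tested. The strongest members with an ncRNA gene near were those of mir-51, ftt-2 and mir-52, which lie in or beside F36H1.17, F52D10.7 and Y37A1B.335.

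The strongest pseudogene members were rank 386 and rank 668, both inside Y17D7C.3 on V, with pooled signals of 44.2 and 32.8, and rank 429 on X with 40.6. The strongest near a piRNA gene were ranks 564, 653 and 1081, with 35.6, 33.3 and 28.5. The strongest near a lincRNA gene were ranks 338, 673 and 815, with 48.4 at linc-91, 32.8 at linc-78 and 30.8 at linc-128. RefSeq annotates a pseudogenic tRNA at 1 member, Y22D7AR.t1 (rank 1360, signal 27), a kind of gene that the selection by position did not exclude.

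Members were seldom in repeats. A window of 100 bp each side of the summit was called repetitive when over 50% of its 25-mers occur at least 2 times in the genome. That was so for 4 members (1.00%, exact binomial 95% interval 0.274 to 2.55), against 14.6% of background windows. No 25-mer recurred in 342 members (85.7%). The repetitive members were rank 405 on III with 42.4, rank 829 on V with 30.6, rank 1949 on IV with 24.7 and rank 1965 on V with 24.6. Rank 405, the only one in the optimal set, lay inside the ncRNA gene srpr-2.1. Its 25-mers had a median of 2 copies in the genome, and none occurred at least 10 times. Soft-masked bases filled over 50% of the window in 48 members (12.03%), against 32.9% of the background. How the authors placed reads with several matches is not given in the sources used here, and its part in these shares was not tested. Alignment of members against each other gave 3 groups of like sequence with 10 members. The largest, of 5 members, was led by rank 973 on II and rank 1350 on I, with 29.3 and 27.05, and the next, of 3, by rank 389 on V and rank 1443 on X, with 44.1 and 26.7. The pair in Y17D7C.3 made the last.

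GA repeats and Sp1 sites were more frequent at member summits than beside them. Sequence was not used in the selection of members. The 18 motifs were chosen with earlier results of these data known, so their p-values are not independent support. Each was compared between the window of 201 bp at the summit and a flank window 300 to 500 bp away, left or right in turn. The test was the exact two-sided McNemar test with Benjamini-Hochberg adjustment over the motifs, and 2 passed an adjusted p of 0.05 (11.1%). The GA repeat GAGAGA was found at 121 of the 399 summits and in 57 flank windows (odds ratio 2.64, exact McNemar adjusted p = 1.36e-06), and in 61 windows of the other flank. It was in 10.1% of 148072 background windows and in 21.4% of promoter peaks. The Sp1 site, CCACCC or CCGCCC, was in 69 summit windows and 28 flank windows (odds ratio 2.78, exact McNemar adjusted p = 0.000114), and in 36 of the other flank. It was in 6.51% of the background and 17.3% of promoter peaks. Members taken from replicate 1 alone lost the call for the Sp1 site (59 against 37 windows, odds ratio 1.65, exact McNemar adjusted p = 0.118).

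Members with both motifs numbered 26, and 16 of them were in both replicate lists. The strongest member with a GA repeat in both replicates is rank 123 (chrIII:8043873-8044073). Its window is shown as an example, from the plus strand of the RefSeq sequence on ce11 with the repeat in capitals. The run of TC is the repeat as it reads on the minus strand.
rank 123: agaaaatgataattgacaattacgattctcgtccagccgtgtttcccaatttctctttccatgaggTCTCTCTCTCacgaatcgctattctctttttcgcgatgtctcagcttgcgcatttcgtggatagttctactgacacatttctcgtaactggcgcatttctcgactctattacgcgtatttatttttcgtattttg

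Summits were richer in G and C than their surroundings. The share of G and C was 40.4% ± 7.02 (SD, n = 399 windows) at summits, 35.3% ± 7.21 in flank windows and 34.1% in the background, and it was higher at the summit in 278 of 399 members. Promoter peaks had 39.8% and peaks within genes 39.7%. The motifs that passed hold more G and C than the genome, and their part in that rise was not tested. In a search over all 2080 6-mers, added after the data were seen, 43 passed the same test (2.07%), 28 of them more frequent at summits and 15 less. The lead was CCCTTC, in 58 summit windows and 13 flank windows (exact McNemar adjusted p = 4.46e-05, background 4.57%), followed by GAGAGA itself and GACGCA, in 53 and 14 (exact McNemar adjusted p = 0.000444). The ones that were less frequent are rich in A and T, led by ATTTAA, in 77 and 135.

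The site that MED-1 is known to bind was not more frequent at the summits. The MED site, AAGTATAC or GAGTATAC, was in 4 summit windows and 4 flank windows (odds ratio 1, exact McNemar adjusted p = 1), or 1.00% of members against 0.832% of the background. Its core AGTATAC was in 5 and 5. With so few windows a difference of moderate size was not detectable. The usual GATA site was in 160 summit and 164 flank windows (odds ratio 0.961, exact McNemar adjusted p = 1), or 40.1% against 42.3% of the background. The B box GTTCGANNC, the inner promoter element of tRNA genes, was in 14 and 6 (odds ratio 2.60, exact McNemar adjusted p = 0.433). Among the 14 were the members at mir-51, in K10H10.14 near dhs-8 and near jhdm-1, which rank 27, 129 and 297. The T tract TTTTTTTT was in 74 and 103 (odds ratio 0.628, exact McNemar adjusted p = 0.0760). The remaining 11 of the 18 motifs had adjusted p-values of 0.961 to 1 by the same exact test.

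**Figure D5:**
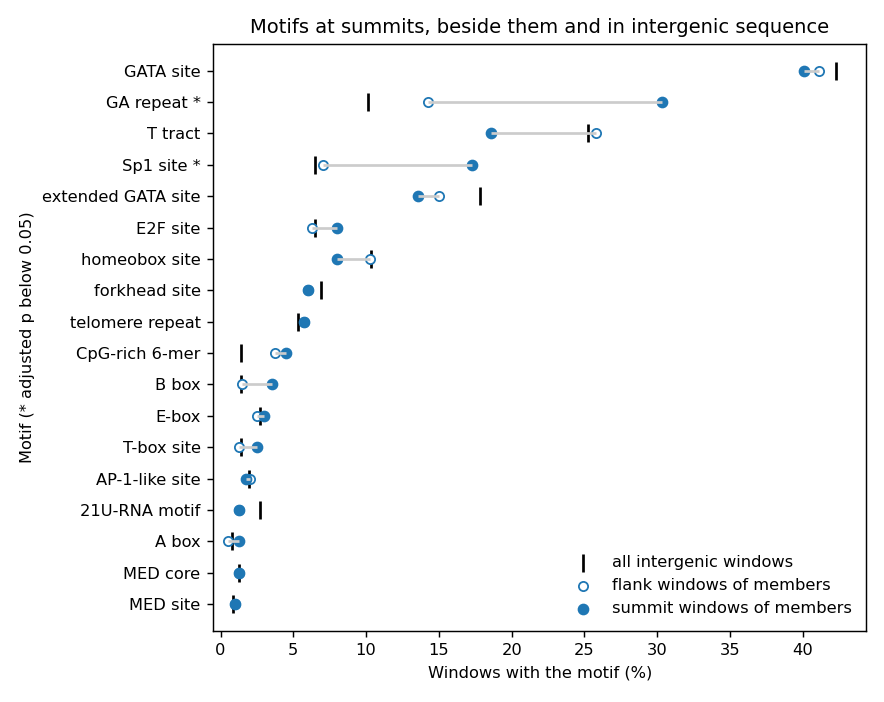
Share (%) of windows of 201 bp with each of 18 motifs at member summits (filled), in flank windows (open) and in all intergenic background windows (black ticks). The GA repeat (30.3% at summits, 14.3% in flanks) and the Sp1 site (17.3% and 7.02%) are the marked motifs, and the MED site is at 1.00% in both.

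The 4 members with a MED site were weak. Their pooled signals were 29.9 at rank 904, 26.97 at rank 1366, 24.99 at rank 1866 and 24.7 at rank 1956. None had a peak in the list of replicate 1, and none was in the optimal set. In replicate 2 they ranked 352, 2908, 8444 and 4876. They flanked Y54F10AR.1, VB0395L.1, srsx-8 and wrt-6 as the nearest genes. Each is shown with 20 bases on either side, from the plus strand of the RefSeq sequence on ce11 with the site in capitals on whichever strand it reads, since this is the sequence the factor is known for: chrIII:2576881-2576928, chrX:16010132-16010179, chrV:1555543-1555590 and chrX:3479652-3479699.
rank 904: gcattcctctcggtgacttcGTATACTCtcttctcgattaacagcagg
rank 1366: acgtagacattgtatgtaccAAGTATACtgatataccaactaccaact
rank 1866: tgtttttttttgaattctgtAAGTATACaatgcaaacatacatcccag
rank 1956: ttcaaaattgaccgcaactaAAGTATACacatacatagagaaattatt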

How the data were processed

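According to the lists of files among the deposited data, the authors made 1 peak list for each replicate and 1 pooled list from the alignments and a control, each with background as input for IDR, and the optimal set from these. The deposited signal value of each peak is never negative, and its scale is not given in the sources used here, nor are the aligner, the peak caller and the IDR threshold. It ranks peaks within a list. The deposited q-value column falls below 0 and served as a score. Read depth is unknown. The lists on ce11 were used, and those on ce10 were not used here.

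Genes came from Ensembl release 115, sequence from the RefSeq genome of the same assembly, whose chromosome names were matched by its headers. Background positions lay every 100 bp, and background windows every 200 bp. Motifs were searched on both strands. Motif tests ran in scipy 1.17.1 and were tested on simulated data, alignments of members in blastn 2.17.0 (E-value 1e-05, at least 50 bp). Members, motifs and gene lists were chosen with earlier results of these data known. Named peaks were the 20 strongest, those beside the limits, with a MED site, or beside listed genes, and the strongest of each chromosome, gene kind and like-sequence group. The MEX core, the med-1 neighbourhood, loci and 6-mers were added after the data were seen. Replicates are separate biological samples by the labels.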

Additional observations from a re-analysis of the deposited data

How the results depend on the processing

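The number of members was 160 when the strongest 1000 pooled peaks were taken and 898 with the strongest 4000. The share in both replicate lists was then 64.4% and 24.2%, and the share inside a non-coding RNA gene or pseudogene was 14.4% with 1000, against 10.03% as reported. Members taken from 1 replicate's own list, leaving the other out, overlap that list by construction. Their share in both lists is thus the overlap with the other list alone, a different measure. It was 21.6% for members from replicate 2, against the 2401 peaks of replicate 1. For members from replicate 1 it was 51.98%, against the 30000 peaks of replicate 2. These sets of members had 1 to 4 motifs past the threshold. The Sp1 site had an odds ratio of 1.65 and lost its call without replicate 2. With a distance of 250 bp to transcript starts 4 motifs passed, with windows of 50 bp each side 3, the T tract included (exact McNemar adjusted p = 0.0379). Requiring summits within 100 bp gave 33.6% in both lists, and taking the strongest 460 peaks of each replicate gave 4.76%, against 18.3%. Repetitive windows were 0.251% with 25-mers at least 10 times in the genome and 12.03% by soft-masked bases, against 1.00%. The GA repeat kept its call under every alternative run, with an odds ratio of 1.81 to 2.88. Alternatives added after the data were seen were the X share and replicate share without the med-1 neighbourhood, given above, and 7 letters of the MEX core (CGCAGGG), found in 10 of 109 X members (9.17%) and 1 of 290 autosomal members. The cause of these shifts was not tested. No paired analysis was possible because there is 1 group. With the read depth unknown, no error could be given for a single peak's signal.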
